A study of Mus musculus with 12 samples.

Results

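The genes described here encode parts of the axoneme, the microtubule engine of cilia and of the sperm tail, and of the transport system that builds it. They were chosen by name: all gene symbols of the germ cell tables that begin with Dnah or Ift followed by a digit, or with Dnahc, Dnaic, Dnalc, Dnali, Rsph or Tekt. The rule found 38 of the 22552 symbols, spread over 15 chromosomes, and did not use any expression value. They comprise 10 dynein heavy chains, 5 dynein intermediate and light chains, 6 radial spoke proteins, 5 tektins and 12 intraflagellar transport (IFT) subunits. Of the 38, 34 entered the tests because 2 or more of the 8 germ cell libraries had them at 1 FPKM or above, and Dnahc5, Dnahc9, Dnahc11 and Rsph4a did not. FPKM scales the fragments of a gene by transcript length and by library size, so that levels of different genes can be set side by side.

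The series followed male germ cells of mice, F1 offspring of the DBA/2 and C57BL6 strains, through spermatogenesis by sequencing total RNA. Primitive type A spermatogonia (priSG-A, mitotic germ cells before meiosis) came from testes at 7 days postpartum (dpp). Preleptotene spermatocytes (plpSC, the last cells before meiotic prophase) and pachytene spermatocytes (pacSC, cells in meiotic prophase) came from testes at 17 dpp. Round spermatids (rST, haploid cells after meiosis) came from adult testes at 60 dpp, and all 4 stages were separated by STAPUT, sedimentation of cells by size, with 2 libraries each. Cultured spermatogonial stem cells (SSCs, 5 dpp) gave 4 more libraries, whose files list circular RNAs only. RNase R, which degrades linear RNA, was used on 2 of them. The labels do not say that the libraries of a stage come from separate animals, so every p-value here rests on a spread that may be technical. Age and stage cannot be told apart, except between plpSC and pacSC.

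An axoneme has a ring of microtubule doublets around a central pair of single microtubules. Rows of outer and inner dynein arms on each doublet hydrolyse ATP and slide it along its neighbour, radial spokes carry signals from the central pair to the arms, and tektins are filament proteins that run along the doublet. IFT trains carry axonemal building blocks along the doublets, the IFT-B complex towards the tip with kinesin-2 and the IFT-A complex back with cytoplasmic dynein-2. Spermatids build a long motile axoneme, that of the sperm flagellum. Many other cells carry a short immotile primary cilium, which needs IFT but has neither axonemal dyneins nor spokes.

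RFX transcription factors and FOXJ1 are known regulators of ciliary genes, so the promoters of the members were searched for their motifs. RefSeq (GRCm38.p6) gave a window from 250 bases before to 50 bases after the start for 33 of the 38 members, 12 of them under the current symbol of an older name, and gave none for Ift122, Ift80, Ift81, Rsph1 and Rsph4a. Both strands were searched, so that a match on the minus strand reads as the reverse complement (GGCAAC for the RFX core below), and a gene was counted when any of its listed starts had the motif. The RFX core GTTGCC was in the window of 12 members (36.4%), against 15.6% of the 9853 symbols that passed the filter on low values and have a promoter, and 14.1% of all 27025 genes in the table. Among the complexes it was found for 3 of 5 tektins, 5 of 9 IFT subunits, 2 of 10 heavy chains, 1 of 5 intermediate and light chains (Dnaic2) and 1 of 4 radial spoke proteins (Rsph3b). A complete X-box, taken as the exact core followed after 0 to 3 bases by its exact reverse complement, was in none of the 33. It was in 0.274% of the symbols that passed the filter and in 0.189% of all genes. Forms with a changed base were not counted, so the search cannot say whether these promoters hold an imperfect X-box. The other motifs were each in 2 of the 33 members (6.06%): the FOXJ1 motif GTAAACA (Dnahc17 and Tekt3), the cAMP response element TGACGTCA (Dnahc6 and Ift57), and the MYB motif TAACGG (Rsph6a and Ift57). Among the symbols that passed the filter these stood at 3.02%, 3.58% and 4.53%, and among all genes at 4.05%, 2.03% and 3.15%, in the same order. The cAMP response element is bound by CREM, a regulator of spermatid genes, and the MYB motif by MYBL1, a regulator of pachytene genes. The 4 members with more than one match at 1 start, or with matches of several motifs, are shown as the 200 bases before the (first listed) start, 5′ to 3′ on the gene's strand, with the matches in capitals. Dnahc10 lies on the plus strand (window chr5:124724885-124725084), Tekt1 on the minus strand (chr11:72361883-72362082), Tekt2 on the minus strand (chr4:126325689-126325888) and Ift57 on the plus strand (chr16:49699094-49699293).
Dnahc10: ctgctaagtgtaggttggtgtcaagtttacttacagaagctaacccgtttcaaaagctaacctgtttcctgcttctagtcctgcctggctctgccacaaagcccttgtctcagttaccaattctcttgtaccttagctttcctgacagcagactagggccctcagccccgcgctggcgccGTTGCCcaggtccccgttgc
Tekt1: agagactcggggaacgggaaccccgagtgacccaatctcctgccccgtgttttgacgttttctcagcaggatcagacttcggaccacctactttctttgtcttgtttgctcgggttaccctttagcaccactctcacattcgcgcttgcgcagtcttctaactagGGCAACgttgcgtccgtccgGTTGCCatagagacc
Tekt2: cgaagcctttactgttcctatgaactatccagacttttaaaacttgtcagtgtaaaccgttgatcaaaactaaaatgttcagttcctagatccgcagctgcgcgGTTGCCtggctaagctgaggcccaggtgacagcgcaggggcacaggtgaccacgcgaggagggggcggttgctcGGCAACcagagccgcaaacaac
Ift57: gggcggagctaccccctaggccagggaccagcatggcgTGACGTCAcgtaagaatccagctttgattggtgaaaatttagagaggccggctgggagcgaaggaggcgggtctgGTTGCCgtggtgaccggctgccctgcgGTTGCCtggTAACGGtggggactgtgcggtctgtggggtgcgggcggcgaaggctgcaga
In Tekt1 the core began 35 and 15 bases before the start, once on each strand, and in Tekt2 96 and 22 bases before it, again once on each strand. Dnahc10 had it 20 bases before the start and a second time 10 bases after it, outside the stretch shown. Ift57 had the core 87 and 60 bases before the start, the MYB motif 51 bases before it and the cAMP response element 162 bases before it. Distances are from the listed start, which was the RefSeq gene start in 13 windows. In some others the gene start lay before the window. A match is a description of letters and not a binding site.

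Some libraries stood apart, and this touches the results below. Depth, estimated through the confidence bounds given with each FPKM, was between 23520448 fragments (rST replicate 2) and 34923958 (plpSC replicate 1). Markers of the plpSC label were mixed. Stra8, which marks entry into meiosis, was lower in plpSC (43.9 and 100.4 FPKM) than in priSG-A (166 and 145). Of the other early meiotic markers, Rec8 was above priSG-A in both plpSC libraries (35.3 and 17.3 against 11.0 and 11.7 FPKM). It was higher still in rST (39.1 and 41.7). Prdm9 was also above priSG-A in both plpSC libraries (4.75 and 14.2 against 2.88 and 4.62). Dmc1 overlapped (9.92 and 30.2 against 6.70 and 10.5). The sum of the 4, most of it Stra8 in priSG-A, was 93.8 and 162 in plpSC against 187 and 172. Markers of later cells were high in plpSC: the 7 pachytene markers summed to 2608 and 1179, and the spermatid acrosome gene Acrv1 stood at 139 and 41.2. The full round spermatid list summed to 512 and 261 in plpSC. Its member Prm1 (72.29 and 60.45) was near its level in priSG-A replicate 1 (67.45). Peritubular myoid (107 and 408) and erythroid (224 and 441) markers were also highest in plpSC. In priSG-A replicate 1 the pachytene list summed to 122 against 31.8 in replicate 2, and the 8 round spermatid markers to 142 against 19.9. Most of that pachytene sum in replicate 1 was Ldhc (85.0 against 2.13 in replicate 2). Both priSG-A libraries held Sertoli cell RNA (982 and 1009, against at most 184 elsewhere). In pacSC replicate 2 the round spermatid list summed to 4978 against 220.3 in replicate 1, and the Leydig cell list to 834 against 43.5. Spermatogonial markers summed to 413 and 373 in priSG-A and at most 86.3 elsewhere, and macrophage markers to between 4.34 and 33.1. Among the 6 measured markers of multiciliated epithelium, Sntn and Cdhr3 stayed at or below 0.0589 in all 8 libraries. Ccno lay between 0.483 and 1.93, and Tppp3 between 1.39 (pacSC replicate 1) and 16.7 (rST replicate 2). Foxj1 and Ccdc67 of that list, which germ cells also express, reached 60.2 and 122 in rST. In bulk RNA, fewer cells of a type and less RNA per cell cannot be told apart.

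**Figure D1:**
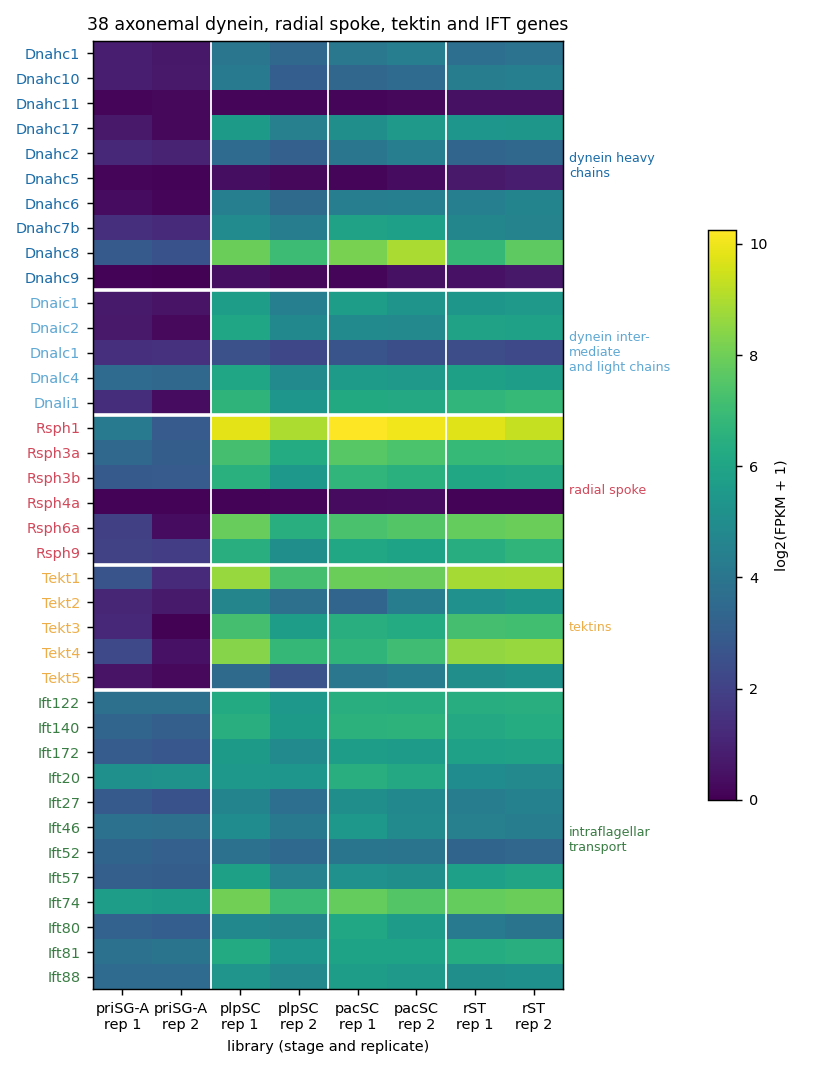
Levels of the 38 genes as log2(FPKM + 1) in each of the 8 germ cell libraries, grouped by complex. The priSG-A columns are the darkest, and 4 rows (Dnahc5, Dnahc9, Dnahc11 and Rsph4a) stay below 1 FPKM in all libraries.

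Most members outside the IFT group stood at a few FPKM or less in spermatogonia and far higher in the later libraries. The limma F test over the 4 stages, run across all 14111 genes tested and adjusted by Benjamini-Hochberg, called 34 of 34 members, against 88.5% of all genes. Of the 34, 17 had their highest stage mean in pacSC and 17 in rST, and none in priSG-A or plpSC. Among all genes tested, 15.7% were highest in pacSC and 24.7% in rST, while priSG-A had the highest mean of 53.6% and plpSC of 6.0%. All 5 tektins were highest in rST, and 8 of the 12 IFT subunits were highest in pacSC. The heavy chains split into 4 highest in pacSC and 3 in rST, the intermediate and light chains into 2 and 3, and the radial spoke proteins into 3 and 2.

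Between spermatogonia and round spermatids 31 of the 34 members rose and 0 fell, against 29.5% of all genes higher and 53.6% lower. Dnahc1, Dnahc6, Dnahc10, Dnahc17, Dnaic1, Dnaic2 and Tekt5 were under 1 FPKM in both priSG-A libraries. They passed the filter only through later libraries, so they could hardly be highest in priSG-A or fall from it to any later stage. With no filter, 34 of 38 members were higher in rST than in priSG-A, and 0 lower. For plpSC and pacSC the numbers were 31 and 35, again with 0 lower. The medians and shares here are those with the filter. The median log2 change was 3.28 for the members and -0.76 for all genes. By complex it was 6.55 for the tektins, 4.84 for the intermediate and light chains, 4.61 for the radial spoke proteins, 3.58 for the heavy chains and 1.95 for the IFT subunits. Ift20, Ift46 and Ift52 were not called (adjusted p = 0.213, 0.117 and 0.576, limma). Here and at the steps from priSG-A to plpSC and from plpSC to pacSC, limma also gave 0 members lower at an unadjusted p under 0.05. The libraries of both stages did not overlap for any member, with rST above in 33 and below for Ift20, against 35.8% of all genes with rST above and 60.5% with rST below. All log2 changes are differences of log2(FPKM + 1), which understates the change of genes near 0.

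Dynein heavy chains are the motor subunits, and those of the outer arm come in versions used in sperm and versions used in multiciliated cells. Dnahc8 (17:30763880-31012209 on mm9, the build of all gene positions here) encodes an outer arm heavy chain of sperm. It stood at 6.57 and 5.02 FPKM in priSG-A, at 243 and 130.1 in plpSC, at 289.8 and 487 in pacSC and at 113 and 207 in rST. It had the highest stage mean of the heavy chains, with both pacSC libraries above all others, and its rST libraries lay above both spermatogonial libraries. Its log2 change from priSG-A was 4.73 ± 0.43 (SE) to plpSC (adjusted p = 0.000184) and 4.51 ± 0.43 to rST (adjusted p = 5.35e-05). From pacSC to rST it was -1.29 ± 0.43 and missed the threshold (adjusted p = 0.0513).

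Dnahc17 (11:117883036-117990533), the other outer arm heavy chain of sperm, was at 0.631 and 0.165 FPKM in priSG-A, at 46.6 and 20.8 in plpSC, at 32.9 and 43.7 in pacSC and at 40.1 and 41.4 in rST. From plpSC on its libraries overlapped between stages, and all 6 lay above both priSG-A libraries. Its rise to rST was 4.92 ± 0.38 (adjusted p = 3.45e-05). Its locus shares 2289 bases with Pgs1.

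The outer arm heavy chains known from airway and other motile cilia were low in every library. Dnahc5 (15:28133520-28401800), the counterpart of Dnahc8 in motile cilia, lay between 0.0772 (priSG-A replicate 2) and 0.776 FPKM (rST replicate 2). Dnahc9 (11:65644825-65982053) and Dnahc11 (12:119116454-119437516), the counterparts of Dnahc17, lay between 0.0526 and 0.592 and between 0.108 and 0.389. These low levels were still backed by an estimated 36 to 399 fragments per library, since the transcripts are long. The 3 genes had their highest values in the 2 rST libraries. The ratio of Dnahc8 to Dnahc5 lay between 65.0 (priSG-A replicate 2) and 3322 (pacSC replicate 1). For Dnahc17 over Dnahc9 it lay between 3.13 and 255, lowest in priSG-A, where both genes were under 1 FPKM.

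**Figure D2:**
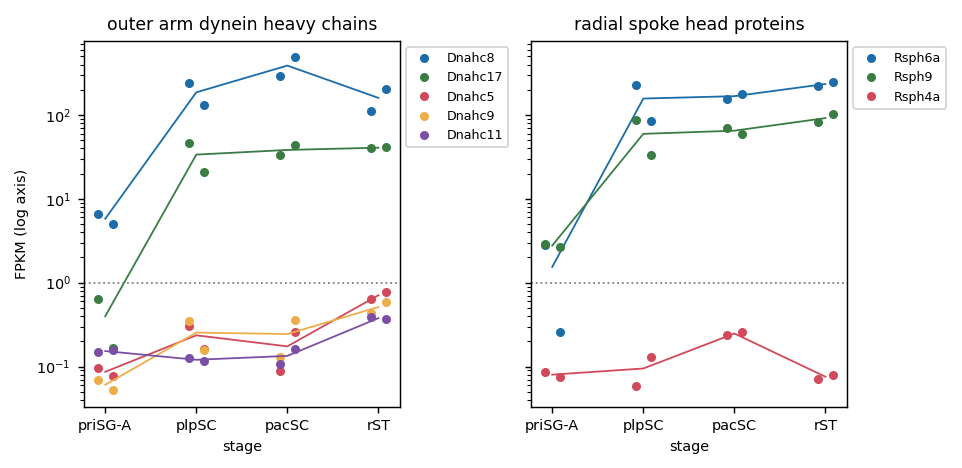
FPKM on a log axis by stage for heavy chains of the outer arm (left) and radial spoke head proteins (right). Points are the 2 libraries of a stage, lines join stage means, and the dotted line marks 1 FPKM. Dnahc8 and Dnahc17 rise past 20 FPKM from plpSC on, and Dnahc5, Dnahc9, Dnahc11 and Rsph4a stay under 1.

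The remaining heavy chains belong to inner arms, which shape the bend of the axoneme. Dnahc7b (1:46123582-46430395) was at 1.64 and 1.38 FPKM in priSG-A, at 29.6 and 18.6 in plpSC, at 58.3 and 53.8 in pacSC and at 25.3 and 23.1 in rST. Both pacSC libraries exceeded all others, and the rST libraries lay within the range of plpSC. The gene rose from plpSC to pacSC by 1.22 ± 0.25 (adjusted p = 0.016) and fell from pacSC to rST (-1.18 ± 0.25, adjusted p = 0.0113). The mouse has further genes closely related to Dnahc7b, so the assignment of its reads is uncertain.

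Dnahc2 (11:69234310-69362610) had the same order at a lower level, at 1.22 and 0.995 FPKM in priSG-A, at 10.8 and 7.91 in plpSC, at 15.2 and 19.6 in pacSC and at 9.21 and 9.84 in rST. It rose to pacSC by 0.84 ± 0.23 (adjusted p = 0.0367) and fell to rST (-0.80 ± 0.23, adjusted p = 0.0323). Dnahc1, Dnahc6 and Dnahc10 ranged from 0.0876 to 0.831 FPKM in priSG-A and from 7.29 to 23.5 in the other libraries. They rose from priSG-A to rST by 3.05, 4.27 and 3.58, and were not called at the steps between plpSC, pacSC and rST. The 2 Dnahc10 libraries of rST (18.5 and 20.2) lay above those of pacSC (9.34 and 11.1), with an adjusted p of 0.104.

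Intermediate chains dock the outer arm on its doublet, and light chains regulate the motors. Dnali1 (4:124732582-124742901), a light intermediate chain of inner arms, was at 1.56 and 0.273 FPKM in priSG-A, at 101 and 40.2 in plpSC, at 74.0 and 71.4 in pacSC and at 105 and 115 in rST. It had the largest rise of the group to rST, 5.94 ± 0.46 (adjusted p = 3.54e-05), with all later libraries far above both spermatogonial ones. Dnaic2 (11:114588725-114619200), an outer arm intermediate chain, was at 0.62 and 0.193 FPKM in priSG-A, at 65.5 and 26.7 in plpSC, at 29.0 and 27.5 in pacSC and at 59.3 and 57.2 in rST. Its rise to rST was 5.41 ± 0.39 (adjusted p = 3.31e-05). The rST libraries lay above both pacSC libraries, by 1.02 ± 0.39 (adjusted p = 0.0789).

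Dnaic1, the partner of Dnaic2 in the outer arm, was at 0.693 and 0.458 FPKM in priSG-A and between 20.6 and 50.7 in the other 6 libraries, a rise of 4.84 to rST. Dnalc4 (15:79591878-79604897), an outer arm light chain, was already at 10.8 and 9.98 FPKM in spermatogonia and at 65.0 and 28.3 in plpSC, at 47.8 and 44.5 in pacSC and at 55.9 and 52.5 in rST. Its rise to rST was 2.28 ± 0.35 (adjusted p = 0.000481). The smallest rise of the group was that of Dnalc1, an outer arm light chain that binds the motor domain. It went from 1.69 and 1.76 FPKM in priSG-A to 4.32 and 3.77 in rST (0.89 ± 0.20, adjusted p = 0.00414). This call was lost when the values were rescaled without 3 small RNAs.

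Radial spokes have a stalk on the doublet and a head that faces the central pair. Rsph1 (17:31391964-31414301), a head protein, had the highest level of all 38 members in every library from plpSC on. It was at 18.2 and 6.75 FPKM in priSG-A, at 909 and 498 in plpSC, at 1210 and 1043 in pacSC and at 855 and 641 in rST. Its rise was 5.79 ± 0.48 to plpSC (adjusted p = 0.000182) and 5.93 ± 0.48 to rST (adjusted p = 3.62e-05). Both pacSC libraries lay above those of plpSC and of rST, but neither step was called (adjusted p = 0.293 and 0.387).

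Rsph6a (7:19640035-19659796), a head protein known from sperm, was at 2.83 and 0.256 FPKM in priSG-A, at 229 and 84.7 in plpSC, at 156 and 179 in pacSC and at 222 and 246 in rST. Its rise to rST was 6.74 ± 0.59 (adjusted p = 4.2e-05), the largest of the spoke proteins. Rsph4a (10:33624916-33635827), the related head protein of motile cilia, lay between 0.0578 and 0.26 FPKM, backed by an estimated 9 to 43 fragments per library. The ratio of Rsph6a to Rsph4a was between 3.43 and 33.1 in priSG-A and between 644 and 3969 in the other 6 libraries. Rsph9, a head protein shared by cilia and sperm, was at 2.90 and 2.65 FPKM in priSG-A and between 33.1 and 102 elsewhere, a rise of 4.61 to rST.

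Rsph3a (17:8138478-8172421) and Rsph3b (17:7109064-7152705) encode stalk proteins and are close copies of each other, so the split of reads between them is uncertain. Rsph3a was at 9.81 and 7.14 FPKM in priSG-A, at 149 and 78.8 in plpSC, at 191 and 159 in pacSC and at 116 and 122 in rST. The ratio of Rsph3a to Rsph3b lay between 1.66 and 1.82 in the 6 libraries from plpSC on and at 1.5 and 1.08 in priSG-A. They rose to rST by 3.68 ± 0.32 and 3.24 ± 0.33 (adjusted p = 4.37e-05 and 6.44e-05).

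Tektins had the highest median rise of the 5 complexes from priSG-A to rST (6.55, range 4.39 to 7.23). They were the one complex with both rST libraries above both pacSC libraries for every member tested, against 37.6% of all genes. Tekt1 (11:72158221-72175382), with the RFX cores shown above, was at 5.28 and 1.39 FPKM in priSG-A, at 399 and 149.8 in plpSC, at 245 and 241 in pacSC and at 462 and 479 in rST. Tekt4 (17:25608534-25613539), a tektin of sperm flagella, was at 3.73 and 0.415 FPKM in priSG-A, at 329 and 112 in plpSC, at 104 and 136 in pacSC and at 378 and 399 in rST. Its rise of 7.23 ± 0.64 from priSG-A to rST (adjusted p = 4.31e-05) was the largest of all members. Tekt1 rose by 6.93 ± 0.55 (adjusted p = 3.55e-05).

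Tekt3 (11:62875160-62908462), another flagellar tektin, was at 1.28 and 0.0514 FPKM in priSG-A, at 147 and 52.5 in plpSC, at 87.6 and 77.6 in pacSC and at 148 and 139.9 in rST. For Tekt1, Tekt3 and Tekt4 plpSC replicate 1 lay above both pacSC libraries, and replicate 2 lay below both (Tekt1 and Tekt3) or between them (Tekt4). Tekt2 (4:125999364-126002443), found in cilia and sperm, was at 1.12 and 0.656 FPKM in priSG-A, at 24.1 and 12.6 in plpSC, at 9.20 and 19.4 in pacSC and at 34.9 and 42.2 in rST. Tekt5 (16:10361346-10395541), a sperm tektin, was at 0.442 and 0.183 FPKM in priSG-A, at 10.8 and 5.21 in plpSC, at 15.5 and 18.9 in pacSC and at 32.8 and 36.1 in rST. It is the tektin whose stage values ascend at every step with no overlap between neighbouring stages.

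From pacSC to rST, Tekt2 rose by 1.45 ± 0.40 (adjusted p = 0.0274) and Tekt5 by 0.96 ± 0.32 (adjusted p = 0.05 after rounding, just under the threshold). The changes of Tekt1 (0.95), Tekt3 (0.80) and Tekt4 (1.70) were of the same direction and were not called (adjusted p = 0.226, 0.274 and 0.0757). The 2 Tekt2 libraries of pacSC differed 2-fold or more, with replicate 2, which held round spermatid RNA, the higher of them (ratio of replicate 1 to replicate 2 0.476). For Tekt5 the same ratio was 0.82. The part of that RNA in the pacSC level was not tested gene by gene. Without pacSC replicate 2, and also without priSG-A replicate 1 left out with it, Tekt2 was still called and Tekt5 was not.

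**Figure D3:**
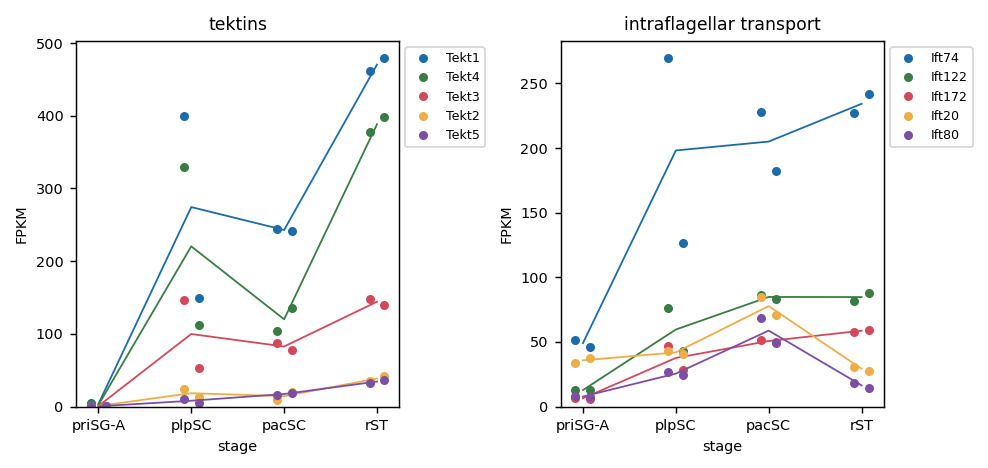
FPKM by stage of the 5 tektins (left) and of 5 IFT subunits (right). Points are the 2 libraries of a stage and lines join stage means. All tektins reach their highest mean in rST, while Ift20 and Ift80 peak in pacSC and drop in rST.

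IFT subunits were the group with the highest levels in spermatogonia. In priSG-A their levels lay between 5.05 (Ift27 replicate 2) and 51.6 FPKM (Ift74 replicate 1). Ift74 (4:94281210-94359924), a tubulin-binding subunit of the IFT-B core, had the highest stage mean of the 12. It was at 51.6 and 46.4 FPKM in priSG-A, at 269.8 and 126 in plpSC, at 228 and 182 in pacSC and at 227 and 242 in rST, a rise of 2.23 ± 0.36 to rST (adjusted p = 0.000602). Its locus contains that of Lrrc19, and no strand is stated, so reads of the overlap cannot be told apart. Its partner Ift81 went from 13.0 and 14.2 FPKM in priSG-A to 80.6 and 85.2 in rST.

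Ift140 (17:25153030-25236442) and Ift122 (6:115803545-115876717) belong to IFT-A. Ift140 was at 9.26 and 7.68 FPKM in priSG-A, at 83.7 and 46.9 in plpSC, at 94.3 and 98.0 in pacSC and at 72.2 and 79.8 in rST. Its rise of 3.03 ± 0.29 to rST (adjusted p = 5.29e-05) was the largest of the IFT subunits, and its locus contains that of Tmem204. Ift122 was at 12.8 and 12.6 FPKM in priSG-A, at 75.8 and 43.3 in plpSC, at 86.1 and 83.5 in pacSC and at 81.9 and 87.5 in rST. Ift172 (5:31555651-31593487), a large IFT-B subunit, was at 6.96 and 5.78 FPKM in priSG-A, at 46.8 and 28.4 in plpSC, at 51.4 and 50.02 in pacSC and at 57.9 and 59.4 in rST. Its rise to rST was 3.02 ± 0.26 (adjusted p = 4.01e-05), and pacSC and rST overlapped for Ift122 but not for Ift172.

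For 7 of the 12 IFT subunits both rST libraries lay below both pacSC libraries, against 40.4% of all genes. Ift20 and Ift80 were the 2 of the 12 called lower at that step, against 16.7% of all genes. Ift20 (11:78349937-78354975), an IFT-B subunit that also works at the Golgi, was at 34.0 and 37.6 FPKM in priSG-A, at 43.1 and 40.7 in plpSC, at 84.4 and 71.0 in pacSC and at 30.9 and 27.5 in rST. It was the member with rST libraries below those of spermatogonia, although that difference was not called. Ift80 (3:68696420-68808492), another IFT-B subunit, was at 8.21 and 7.28 FPKM in priSG-A, at 26.7 and 24.2 in plpSC, at 68.4 and 49.1 in pacSC and at 18.4 and 14.4 in rST. From pacSC to rST Ift80 fell (-1.77 ± 0.23, adjusted p = 0.00456) and Ift20 fell (-1.38 ± 0.20, adjusted p = 0.00501). At the step before, Ift80 rose by 1.16 ± 0.23 (adjusted p = 0.0158) and Ift20 by 0.87 ± 0.20 (adjusted p = 0.0212). For both genes the plpSC libraries differed little (ratios of 1.10 and 1.06).

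Ift57, which has several motifs in the promoter shown above, was at 7.50 and 7.14 FPKM in priSG-A, at 54.8 and 22.6 in plpSC, at 35.2 and 33.5 in pacSC and at 54.6 and 61.9 in rST. It is the IFT subunit whose values were most like those of the tektins by eye, with a rise of 2.83 ± 0.37 to rST (adjusted p = 0.000196) and no call between pacSC and rST (0.74, adjusted p = 0.163). Ift88 and Ift27, of the IFT-B core, rose to rST by 1.55 and 1.68. Ift46 and Ift52, also of the IFT-B core, ranged from 7.77 to 13.3 FPKM in priSG-A and from 8.82 to 20.8 in rST. They were highest in pacSC, up to 43.5 for Ift46 and 14.6 for Ift52.

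Stage by stage, 31 of the 34 members rose from priSG-A to plpSC and 0 fell, against 24.4% of all genes higher and 41.3% lower. Ift20, Ift46 and Ift52 were not called (adjusted p = 0.343, 0.0672 and 0.075). The members' median change was 2.91, and -0.35 for all genes, and for 34 of 34 both plpSC libraries lay above both priSG-A libraries, as for 33.1% of all genes. Since plpSC held RNA of later cells, the share of this step that belongs to preleptotene cells was not tested. The plpSC libraries differed from each other in these genes. The ratio of replicate 1 to replicate 2 had a median of 2.67 for tektins, 2.46 for intermediate and light chains, 2.07 for spoke proteins, 1.86 for heavy chains and 1.77 for IFT subunits. For all expressed genes the median was 0.883, and for Acrv1 the ratio was 3.38, the highest of the round spermatid markers. The others of that list lay between 1.13 (Prm2) and 3.09 (Spaca1), and the pachytene markers between 0.994 (Hist1h1t) and 2.65 (Ccna1).

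The priSG-A libraries showed a like order of complexes. The ratio of replicate 1 to replicate 2 lay between 1.71 and 24.9 for the tektins, and between 0.904 and 1.27 for the IFT subunits, with a median of 1.03 for all expressed genes. Rsph6a had a ratio of 11.0, Tekt3 of 24.9, the pachytene marker Ldhc of 39.9, and the spermatogonial marker Zbtb16 of 1.19. Ldhc was the highest of the pachytene list. The others were Hist1h1t (0.999), Mybl1 (1.18), Piwil1 (1.59), Pou5f2 (1.665), Ccna1 (1.87) and Pgk2 (9.14). The part of the late cell RNA in the spermatogonial levels of the members was not tested. Without priSG-A replicate 1, the 31 members were called at the step to plpSC and to rST as before.

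**Figure D4:**
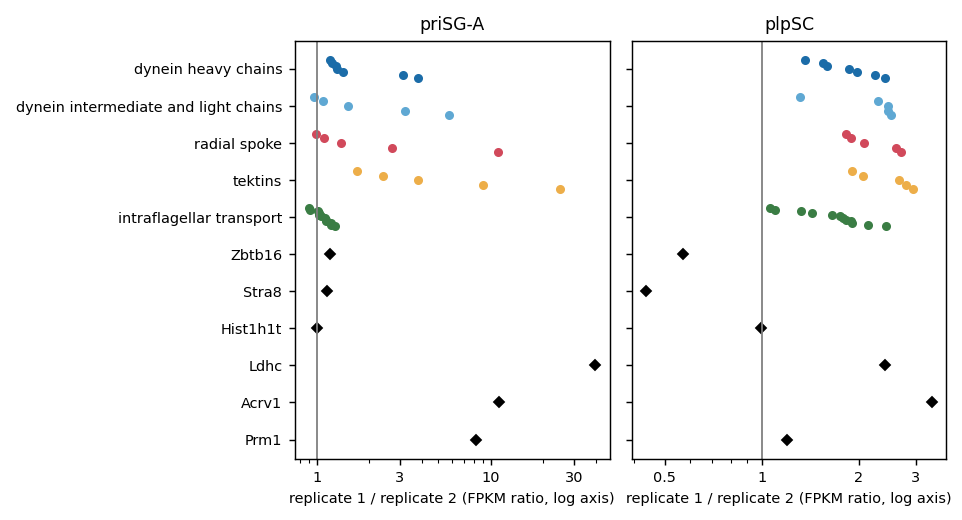
Ratio of replicate 1 to replicate 2 on a log axis for the 34 tested genes by complex (circles) and for 6 stage markers (diamonds), in priSG-A (left) and plpSC (right). In priSG-A the tektins reach 24.9 while the IFT subunits stay between 0.904 and 1.27, and in plpSC all members lie above 1.

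Between plpSC and pacSC, which share an age, 5 of the 34 members rose and 0 fell, against 4.22% of all genes higher and 21.6% lower. The 5 were Dnahc2, Dnahc7b, Tekt5, Ift20 and Ift80, and the median change was 0.43 for the members and -0.25 for all genes. For 16 members both pacSC libraries lay above both plpSC libraries, as for 14.1% of all genes, and for the other 18 they overlapped. The count moved with every library left out. It was 24 without plpSC replicate 1 and 3 without replicate 2, with 3 others then lower (Dnahc10, Dnaic2 and Ift57). It was 0 without pacSC replicate 1, 1 (Ift80) without pacSC replicate 2, and 2 (Dnahc7b and Ift80) when any 1 library of priSG-A or rST was left out.

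Because of the mixed plpSC libraries, pacSC was also set directly against priSG-A, a comparison added after the data were seen. All 34 members rose and 0 fell, against 26.7% of all genes higher and 50.2% lower, with medians of 3.42 and -0.60. The smallest changes were those of Ift52 (0.75 ± 0.21, adjusted p = 0.0117) and Ift20 (1.10 ± 0.20, adjusted p = 0.00144). The largest was that of Rsph1 (6.53 ± 0.48, adjusted p = 3.59e-05). This comparison shares the priSG-A libraries with those to plpSC and rST. With both plpSC libraries left out of the fit, 34 of 34 were again called.

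From pacSC to rST, 2 members rose and 4 fell, against 17.7% of all genes higher and 16.7% lower. The risers were Tekt2 and Tekt5, and Dnahc2, Dnahc7b, Ift20 and Ift80 fell. The median was 0.05 for the members and -0.03 for all genes. With quantile normalization it was -0.22 for the members and -0.15 for all genes. When rescaled without 3 small RNAs it was -0.37 and -0.28, so its sign for the members depended on the scaling. The libraries did not overlap for 14 members with rST above, among them all 5 tektins, and for 15 with rST below, against 37.6% and 40.4% of all genes. The numbers of calls moved with the libraries in the fit, in which all stages share an estimate of the spread, and the reason was not tested. Without both plpSC libraries, 8 members rose and 9 fell. Without pacSC replicate 1, or without rST replicate 1, Ift20 and Ift80 fell and 0 members rose. Without pacSC replicate 2, 1 member rose (Tekt2) and 3 fell (Dnahc7b, Ift20 and Ift80), and without rST replicate 2 none was called.

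**Figure D5:**
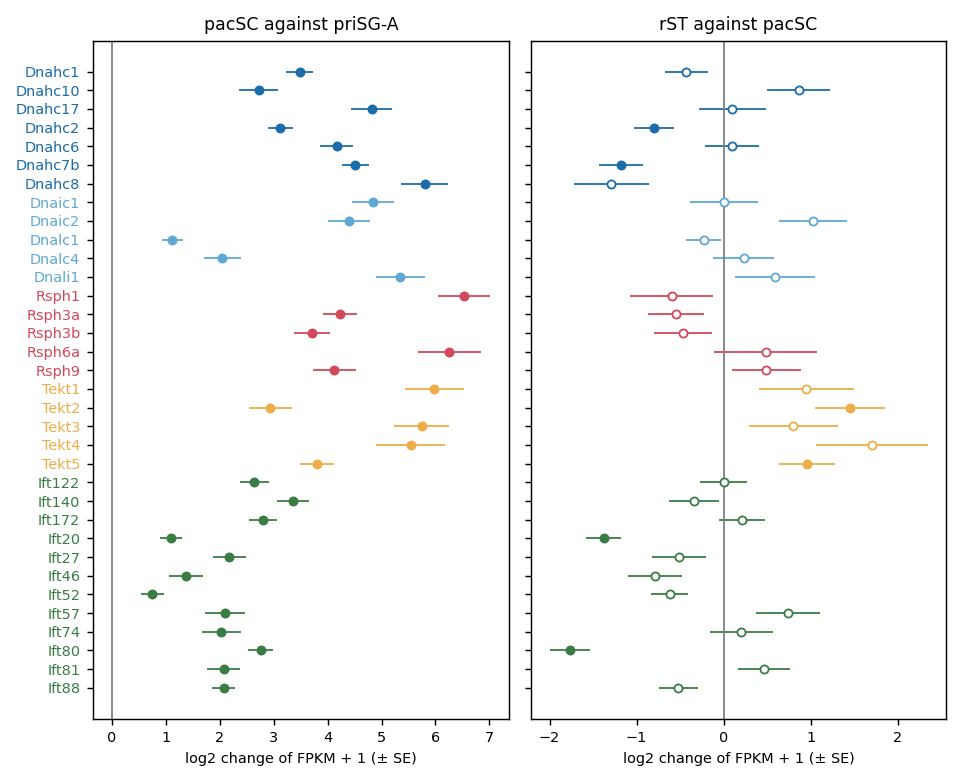
Log2 change of FPKM + 1 with its SE for the 34 tested genes, pacSC against priSG-A (left) and rST against pacSC (right). Filled points passed the threshold, open points did not. All points lie above 0 on the left, and on the right the 5 tektins lie above 0 while Ift20 and Ift80 have the lowest values among the IFT subunits.

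Other genes of the same machinery were followed by lists. From priSG-A to rST all 12 measured genes of the docking and dynein regulatory complexes rose (median 4.72), as did all 7 of the central pair (5.02). Of the measured dynein assembly factors, which fold and load the arms in the cytoplasm, 6 of 7 rose (3.98), and Heatr2 was not called (0.06 ± 0.21). Dnaaf2, Dnaaf3 and Pih1d3 were also listed but had no entry under those names. Of the other IFT subunits 9 of 10 rose (1.81), and Hspb11 was not called (-0.36 ± 0.20). The percentages of all genes called at each comparison are those given above.

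Within these lists, Ccdc65 of the dynein regulatory complex rose by 6.24 ± 0.51, and Ccdc164 by 5.91 ± 0.50. The central pair genes Spag6 and Spag16 rose by 6.30 ± 0.58 and 5.98 ± 0.44. The assembly factors Zmynd10 and Lrrc50 rose by 6.38 ± 0.56 and 5.79 ± 0.41. Zmynd10 was at 2.85 and 0.191 FPKM in priSG-A and highest in pacSC (320 and 289.5). The IFT-B gene Ttc30a2 rose by 5.58 ± 0.45 and Rabl5 by 3.02 ± 0.34, with Ttc30a2 a close copy of Ttc30a1 and its read assignment therefore uncertain.

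The IFT motors and the BBSome, a membrane cargo adaptor of IFT trains, had smaller medians and moved in both directions. Of 9 motor genes 7 rose and 1, the kinesin-2 gene Kif3c, fell (-1.53 ± 0.17, adjusted p = 9.29e-05), with a median of 1.24. Of 10 BBSome genes 8 rose and 1, Ttc8, fell (-0.78 ± 0.22, adjusted p = 0.0112), with a median of 1.57. Kif17, a homodimeric kinesin-2 also known in spermatids as a partner of a CREM coactivator, was at 1.96 and 1.84 FPKM in priSG-A, at 23.1 and 7.73 in plpSC, at 3.81 and 17.1 in pacSC and at 62.5 and 73.5 in rST. It rose from pacSC to rST by 2.88 ± 0.65 (adjusted p = 0.0136), Kifap3, the adaptor of heterotrimeric kinesin-2, by 1.71 ± 0.41 (adjusted p = 0.0162), and the BBSome gene Bbs5 by 1.75 ± 0.36 (adjusted p = 0.0108). Kif17 in pacSC was higher in replicate 2, the library with round spermatid RNA. So were Kifap3 (24.6 in replicate 1 and 40.0 in replicate 2) and Bbs5 (16.3 and 23.55). The part of that RNA in these levels was not tested. Bbs7 rose from priSG-A to rST by 2.76 ± 0.31.

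The single steps gave the following counts. From priSG-A to plpSC, 9 of 10 other IFT genes, 7 of 9 motors, 8 of 10 BBSome genes, 6 of 7 assembly factors, 12 of 12 docking and regulatory genes and 7 of 7 central pair genes rose, and 1 motor gene, Kif3c, fell. From plpSC to pacSC, 2 other IFT genes, 2 motors, 4 BBSome genes and 1 assembly factor rose, and none of these lists had a gene that fell. From pacSC to rST 3 other IFT genes, 3 motors, 3 BBSome genes and 1 assembly factor fell. No gene of the docking and regulatory or central pair lists was called by limma at either of the last 2 steps, with medians between 0.17 and 0.56. At an unadjusted p under 0.05, 1 central pair gene was higher in pacSC than in plpSC, and 2 docking and regulatory genes were higher in rST than in pacSC. From priSG-A to pacSC the counts of genes that rose were 9, 7, 9, 6, 12 and 7 in the order given for plpSC, and Kif3c fell.

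Transcription regulators of ciliary and spermatid genes were measured in the same libraries. All 9 with an entry rose from priSG-A to rST (median 3.37), 7 rose to plpSC, and 7 rose to pacSC. Mcidas and Gmnc were also listed but had no entry under those names. From plpSC to pacSC Rfx4 and Mybl1 rose and Rfx1 fell. From pacSC to rST Rfx1, Rfx3, Foxj1 and Sox30 rose and Mybl1 fell. Foxj1, the master regulator of motile cilia, was at 0.61 and 0.433 FPKM in priSG-A, at 44.1 and 12.9 in plpSC, at 5.95 and 11.5 in pacSC and at 45.4 and 60.2 in rST, a rise of 5.13 ± 0.53 to rST (adjusted p = 7.24e-05). Foxj1 also rose from priSG-A to plpSC (4.04 ± 0.53, adjusted p = 0.000626) and to pacSC (2.62 ± 0.53, adjusted p = 0.00264). Its rST libraries lay above both pacSC libraries, of which replicate 2, with round spermatid RNA, was the higher. The part of that RNA in the pacSC level was not tested. Rfx2, an RFX factor of the testis, was at 0.871 and 0.674 FPKM in priSG-A, at 19.1 and 12.6 in plpSC, at 18.2 and 26.0 in pacSC and at 23.6 and 30.1 in rST. It rose from priSG-A to pacSC by 3.68 ± 0.28 (adjusted p = 3.67e-05) and was not called from pacSC to rST (adjusted p = 0.495). Crem rose from priSG-A to rST by 4.83 ± 0.38 (adjusted p = 3.55e-05).

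In cultured SSCs the files list circular RNAs, RNA closed by a back-splice between a downstream and an upstream splice site, with their junction reads. The 4 lists hold 12266 and 25415 circRNAs with RNase R and 2601 and 3578 without. The loci of 17 of the 38 members (44.7%) contained 68 of them, against 28.4% of the 22293 symbols with 1 locus and 42.2% of the 14015 expressed ones. The member loci were long, with a median of 40738 bases against 14935 and 20492. By complex these were 7 of 10 heavy chains, 2 of 5 intermediate and light chains, 0 of 6 spoke proteins, 1 of 5 tektins and 7 of 12 IFT subunits.

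Ift74 had a circRNA found in all 4 SSC lists (4:94284658-94302526, a span of 17869 bases, exonic), with 28 and 33 junction reads after RNase R and 2 and 2 without. It was the circRNA of a member found in 4 lists. Ift80, with 9 circRNAs, had 48 and 70 junction reads after RNase R and 3 and 0 without. The heavy chains with the most were Dnahc7b, with 13 circRNAs and 33 and 59 reads after RNase R, and Dnahc8, with 11 and 24 and 97 reads. The Dnahc8 circRNA with the most reads (17:30841600-30849331, exonic) had 5 and 41 after RNase R and was not listed without it. A circRNA was tied to a gene by position alone and no strand was used. Depth limits the counts, since replicate 2 with RNase R held 560991 junction reads and the untreated replicate 1 held 21754.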

How the data were processed

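Total RNA of 8 germ cell libraries and 4 SSC libraries was measured. The authors deposited FPKM per gene with confidence bounds, per the file headers, and for SSCs the deposited lists give counts of junction reads per circRNA. Per the submitters' processing notes TopHat2 2.0.6, Cuffdiff and BWA were used with build mm9, with roles, strand and circRNA thresholds not given in the sources used here. Entries sharing a symbol (469) were summed, which left 22552 symbols. Positions are those of the file of pacSC replicate 2. Depth was estimated by reading the bounds as 2 SD of a counting error.

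The test was that of limma 3.58.1 (R 4.3.3), two-sided, for log2(FPKM + 1). The fit had a mean for each of 4 stages over 8 libraries, which leaves 4 residual degrees of freedom, and the trend option of eBayes. It covered the 14111 symbols at 1 FPKM or above in 2 or more libraries, and a call means a p under 0.05 after Benjamini-Hochberg adjustment over all of them. The procedure was tested on simulated data. Values per library are given for the 3 highest members of each complex and the 2 largest called rises and falls per comparison, and for up to 2 genes per list of related genes by change to rST. Other genes were named to complete a count, or for their promoter, after their values were seen. The members and lists were chosen with earlier results of these data known. Promoters are from RefSeq GRCm38.p6, and circRNAs were assigned to the mm9 locus that contains them. Alternatives were a pseudocount of 0.1, no filter, other scalings, no trend, library weights, only the stages compared, a replicate block and leaving out libraries. Python 3.11.15 with numpy 2.4.6, pandas 2.3.3 and matplotlib 3.10.9 served for the rest.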

Additional observations from a re-analysis of the deposited data

How the results depend on the processing

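Of 944 alternative values of the changes of 21 named members, 866 kept their call, 78 lost it and 0 reversed. All 78 losses concerned pacSC against plpSC or rST against pacSC, where far fewer members were called. The named changes of plpSC and of rST against priSG-A lost none, so the pooled count says little about the later steps. The counts from priSG-A held: leaving out single libraries gave 31 to 33 members higher to plpSC, 31 to 32 to rST, 33 to 34 to pacSC, and 31 to 34 in the F test, and 0 lower in each. For rST against priSG-A, 1 member (Ift20) was lower after quantile normalization, after rescaling without 3 small RNAs and with a weight per library. Dnalc1 lost its call in that comparison when rescaled. These 3 RNAs held 18.35 and 22.2% of the FPKM sum in priSG-A and 7.64 and 19.11% in plpSC. They held 6.43 and 3.9% in pacSC and 2.14 and 1.82% in rST. Median changes of all genes from priSG-A to rST moved from -0.76 to -0.49 with quantiles, -0.11 when centred and -1.10 when rescaled, and those of the members lay at 3.37, 3.93 and 2.84. For pacSC against plpSC, 0 members were higher with a weight per library, with only the stages compared, or without priSG-A replicate 1 and pacSC replicate 2 together (added after the data were seen), and 3 with the replicate block. Leaving out single libraries gave 0 to 24 higher and 0 to 3 lower. For rST against pacSC, the number higher and lower was 1 and 9 with quantiles, 0 and 13 when rescaled, 5 and 8 with weights, 10 and 8 with only the stages compared, 8 and 9 without both plpSC libraries and 1 and 2 without priSG-A replicate 1 and pacSC replicate 2, the last pair added after the data were seen. It was 1 higher with a pseudocount of 0.1, when centred, and with the replicate block. Single libraries left out gave 0 to 8 higher and 0 to 9 lower. The causes were not tested, and fits on only 2 stages have fewer residual degrees of freedom. The labels do not say whether the replicate numbers pair the samples. Deviations of same-numbered libraries correlated between -0.314 and 0.38 over the pairs of stages. With a single difference per stage these values cannot decide it. The depth is an estimate, and with 2 libraries per stage small changes could be missed.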
